A study of Pan troglodytes with 8 samples.

Results

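Chromatin accessibility was compared between basal intermediate progenitors (bIP) and basal radial glia (bRG) sorted from chimpanzee cerebral organoids. All 211348 regions of the count table with a chimpanzee position were taken, whatever gene lay closest, of 218080 regions in the table. The comparison used 2 bIP and 2 bRG libraries of the 8 in the series. The other 4 libraries, 2 of apical radial glia (aRG) and 2 of neurons (N), entered the same fit and are given only beside the values they accompany. Cerebral organoids are cultured aggregates of pluripotent stem cells that form layered, cortex-like neural tissue. All were grown from 1 induced pluripotent stem cell line, SandraA, with 9000 cells seeded per aggregate, and collected in week 8 of culture, give or take 3 days. No genotype change or drug separates the populations, which were told apart by flow cytometry, the neurons by BCL11B. With 1 line, nothing here measures variation between chimpanzees. The labels do not say whether libraries 1 and 2 came from separate cultures. Every p-value below therefore judges a difference only against the spread between libraries of a population, estimated over all 8 libraries.

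Radial glia are the stem cells of the developing cortex. Basal radial glia have left the ventricular surface and keep a long process toward the outer surface of the tissue, and they are numerous in primates with a large cortex. Basal intermediate progenitors also lie away from the ventricle, lack such a process, and typically divide to give neurons. EOMES (TBR2), a T-box transcription factor, marks intermediate progenitors, and HOPX, a small homeodomain protein, marks basal radial glia in primate cortex. ATAC-seq reads come from sites where a transposase can reach the DNA, so a higher count means that a region was open in more cells or more often. In bulk samples these possibilities cannot be told apart.

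Regions were counted per library and scaled as CPM to the library total, itself adjusted by edgeR's TMM scaling factor. Over regions this factor was 0.978 and 1.017 in the bRG libraries and 1.058 and 1.048 in the bIP libraries. A gene locus is the sum of the counts of all regions assigned to 1 protein-coding gene as the closest, up to a distance of 50 kb. It stands for nearness, not for control of the gene. Locus CPM use the total over loci and region CPM the total over regions, so a locus value is larger than the sum of its region values. Differences are log2 fold changes of bIP against bRG with their standard errors (SE), from edgeR's quasi-likelihood test, and features with an adjusted p (Benjamini-Hochberg) below 0.05 are called. "Rose" means higher in bIP and "fell" means lower in bIP. All coordinates are chimpanzee panTro6.

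EOMES and HOPX, the markers described above, differed between bIP and bRG in the direction of the population labels. The EOMES locus held 104 and 126 CPM in the bRG libraries and 214 and 209 CPM in the bIP libraries. The groups did not overlap, which was also true of 9181 of all 14070 loci tested. The log2 fold change was 0.88 (SE 0.16, edgeR adjusted p = 0.00436). Neurons held 122 and 83.5 CPM at EOMES, and aRG 130 and 126 CPM, so bIP stood above every other library. The HOPX locus held 214 and 223 CPM in bRG and 144 and 141 CPM in bIP, again without overlap, and fell by 0.62 on the log2 scale (SE 0.10, edgeR adjusted p = 0.00278). HOPX was lower still in N, at 63.5 and 52.0 CPM, and about as high in aRG as in bRG, at 238 and 209 CPM. Neither locus lost its call when any 1 bIP or bRG library was left out. The plot of marker loci shows these values for 20 genes in all 8 libraries.

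**Figure D1:**
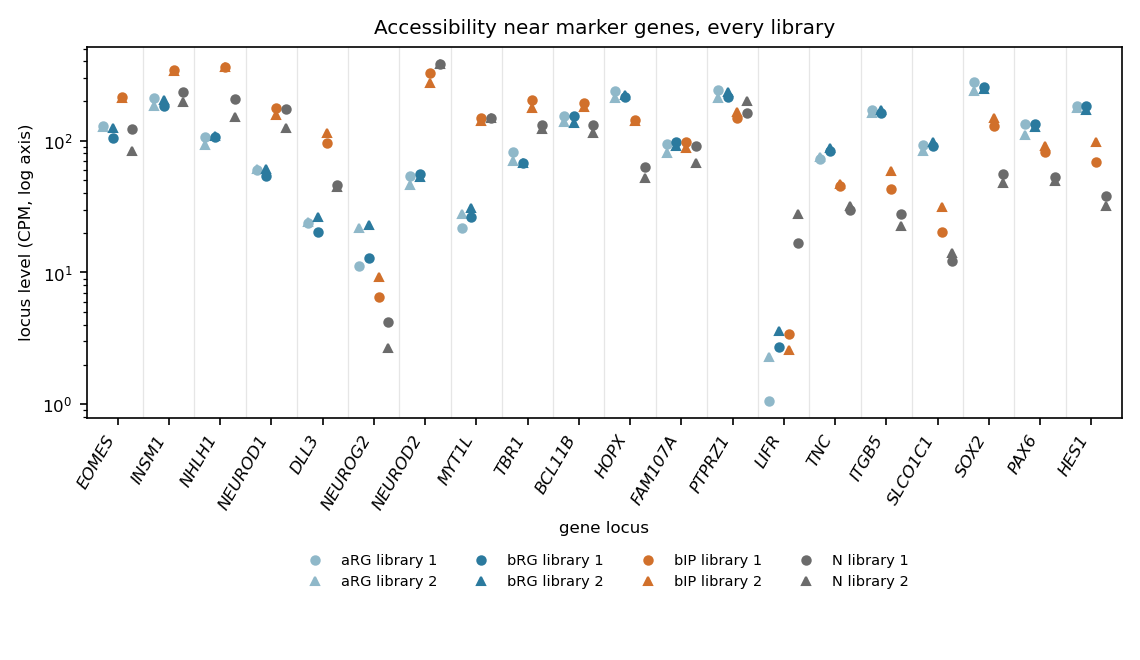
Each point is 1 library's level at 1 gene locus, in CPM on a log axis, with circles for library 1 and triangles for library 2 of the 4 populations. EOMES, INSM1, NHLH1 and DLL3 were highest in the 2 bIP libraries, while HOPX, TNC, ITGB5, SLCO1C1, SOX2, PAX6 and HES1 stepped down from radial glia through bIP to N.

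The 4 libraries held between 24913928 and 34845193 counts each. Across tested regions the correlation of log2 CPM, a description over regions that share libraries, was 0.969 between the bRG libraries and 0.951 between the bIP libraries, and 0.742 to 0.820 between a bRG and a bIP library. Between an aRG and a bRG library it was 0.9623 to 0.9745, as high as between the bRG libraries. The bIP libraries were not equally far from bRG. Library 1 of bIP correlated at 0.752 and 0.742 with the bRG libraries and at 0.815 and 0.711 with the N libraries. For bIP library 2 the values were 0.806 and 0.820 with bRG and 0.734 and 0.652 with N. Among regions that rose, the median log2 ratio to the bRG mean was 1.83 in bIP library 1 and 1.55 in bIP library 2, and among those that fell it was -1.56 and -1.27. Leaving out bIP library 1 lowered the number of regions called from 84949 to 56235.

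Accessibility differed over a large part of the regions. Of 198227 regions tested, 84949 were called (42.9%), of which 44479 rose (22.4%) and 40470 fell (20.4%). The rises were larger than the falls, with a median log2 fold change of 1.73 against -1.44. A change of at least 4-fold was seen in 16613 of the rises and in 6454 of the falls. Rising regions were weak in bRG, with a median of 0.792 CPM in bRG and 3.24 CPM in bIP, while falling regions went from a median of 4.28 CPM to 1.41 CPM. Not all regions tested were peaks of these populations: 91082 lay in neither the bIP nor the bRG peak list of the authors. Their medians were 0.526 CPM in bRG and 0.654 CPM in bIP, and 16429 of them rose (18.0%) and 7972 fell (8.75%). A total of 46944 regions (23.7% of those tested) were called in the full fit and in each of the 4 fits that left out 1 bIP or bRG library. Without bIP library 1 the falls numbered 25007.

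Gene starts changed less often than the regions between them. Of 16146 regions that overlapped the start of a gene of any type, 24.3% were called, against 44.8% of 80638 regions 10 to 50 kb away and 46.1% of 44531 regions 50 to 200 kb away. The contrast was also present at matched levels. Among regions with a mean of 10 to 30 CPM, the share called was 21.4% at gene starts, 57.9% at 1 to 10 kb, 67.3% at 10 to 50 kb and 76.6% beyond 200 kb. At protein-coding gene starts, 421 regions rose (4.06%) and 1686 fell (16.3%) of 10368, or 20.3% called. This direction depended on the scaling. With a level-dependent (loess) scaling, 934 gene start regions rose and 891 fell, and 17.6% were called. Regions over 10 kb from a gene were called in 45.2% of cases with the main scaling and in 45.7% with the loess scaling, so the lower share at gene starts was seen with both, but the excess of falls was not. The number of gene start calls also moved with the libraries, to 999 without bIP library 1, 976 without bRG library 1 and 1284 without bRG library 2, and to 1199 with DESeq2.

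**Figure D2:**
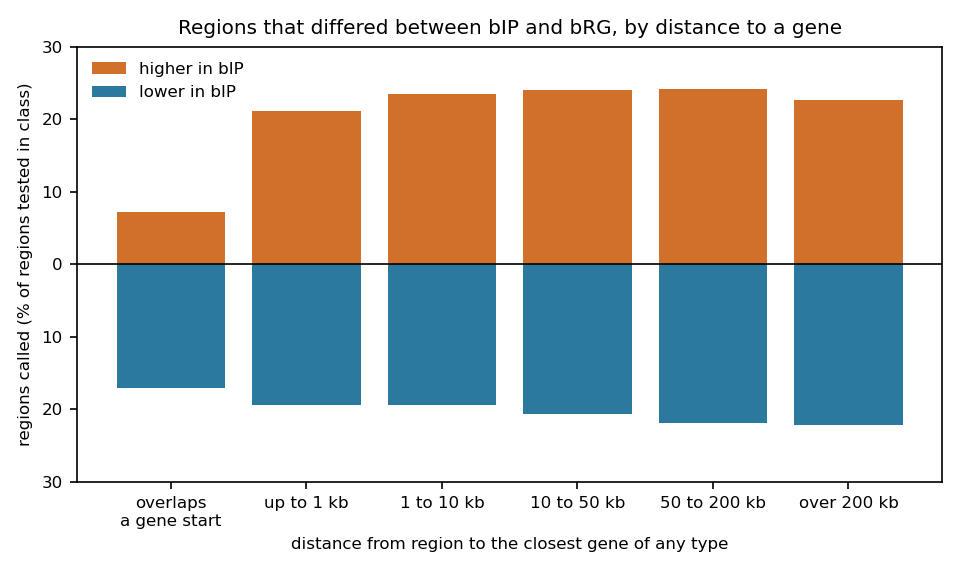
Bars give the share of tested regions that rose (upward) or fell (downward) in bIP, by the distance from the region to the closest gene of any type. At gene starts 7.17% rose and 17.1% fell, and from 10 to 50 kb the shares were 24.1% and 20.7%.

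Single regions showed how a marker locus changed. At EOMES, the region over the gene start, chr3:27890461-27894611, held 29.8 and 34.9 CPM in bRG and 61.0 and 58.9 CPM in bIP, a log2 fold change of 0.89 (SE 0.15, edgeR adjusted p = 0.00048). A region 23.9 kb away, chr3:27915868-27916995, was nearly closed in bRG, with 0.734 and 0.577 CPM, and held 3.01 and 4.71 CPM in bIP (log2 fold change 2.43, SE 0.36, edgeR adjusted p = 0.000221). This distant region lay in the authors' bIP peak list and not in their bRG list. The other 3 regions at EOMES did not pass the test, with log2 fold changes of 0.14 to 0.80.

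HOPX behaved unevenly along its length. Its start, chr4:72206572-72208106, fell from 20.8 and 19.8 CPM in bRG to 11.4 and 11.5 CPM in bIP (log2 fold change -0.82, SE 0.16, edgeR adjusted p = 0.00121). The strongest region of the locus, 7.2 kb away at chr4:72198299-72199866, held 60.4 and 65.2 CPM in bRG and 34.1 and 38.9 CPM in bIP (log2 fold change -0.78, SE 0.14, edgeR adjusted p = 0.000752). Both stood lower again in N, the distant one at 10.5 and 7.37 CPM. A weak region 2.2 kb away, chr4:72204357-72205017, went the other way, from 0.646 and 0.916 CPM to 3.62 and 1.61 CPM, with a log2 fold change of 1.67. That call rested on bIP library 1, without which the log2 fold change was 0.99 (edgeR adjusted p = 0.0899), and it was also lost, by a small margin, without bRG library 1 (edgeR adjusted p = 0.0501).

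Some loci held opposite changes. Of 9401 loci with at least 2 tested regions, 1872 (19.9%) held at least 1 region that rose and 1 that fell. Only rises were called in 25.9%, only falls in 27.4% and no region in 26.8%. Over all regions 22.4% rose and 20.4% fell, and whether mixed loci exceed what these shares would give was not tested. Of the 1872, 675 (36.1%) were called as a whole, beside 28.2% of all loci, which include loci with 1 region. FAM107A, a basal radial glia marker that binds the actin cytoskeleton, is an example of a mixed locus. Its locus sum did not pass the test, at 97.6 and 91.6 CPM in bRG and 98.3 and 88.8 CPM in bIP (log2 fold change -0.02, SE 0.14, edgeR adjusted p = 0.946). Yet its start, chr3:58875369-58877435, fell from 15.4 and 13.8 CPM to 6.02 and 7.24 CPM (log2 fold change -1.14, SE 0.23, edgeR adjusted p = 0.00189). A region 18.5 kb away, chr3:58895403-58896545, rose from 1.73 and 1.02 CPM to 9.71 and 4.25 CPM (log2 fold change 2.28, SE 0.43, edgeR adjusted p = 0.00102). The sign of the locus sum, but not a call, turned without bIP library 2 (0.05) or bRG library 1 (0.03). Summed only within 10 kb or 1 kb of the gene, the locus was called lower, with log2 fold changes of -0.40 (edgeR adjusted p = 0.0466) and -0.99 (edgeR adjusted p = 0.00605).

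PTPRZ1, a receptor phosphatase of radial glia, also split. Its locus fell by 0.51 on the log2 scale, from 215 and 233 CPM in bRG to 148 and 166 CPM in bIP (SE 0.12, edgeR adjusted p = 0.0130), and the call was lost without bIP library 1 (edgeR adjusted p = 0.0872) or bRG library 2 (edgeR adjusted p = 0.0757). Nearly all of the fall lay in regions far from the start. The largest, 40.8 kb away at chr7:118853104-118854644, dropped from 40.4 and 45.0 CPM to 6.60 and 12.5 CPM (log2 fold change -2.15, SE 0.23, edgeR adjusted p = 2.73e-05). A region 1.5 kb from the start, chr7:118809927-118810786, rose from 1.20 and 2.17 CPM to 8.81 and 9.84 CPM (log2 fold change 2.42, SE 0.32, edgeR adjusted p = 9.35e-05). Counting only regions within 10 kb turned the locus value to 0.46 (edgeR adjusted p = 0.0025).

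**Figure D3:**
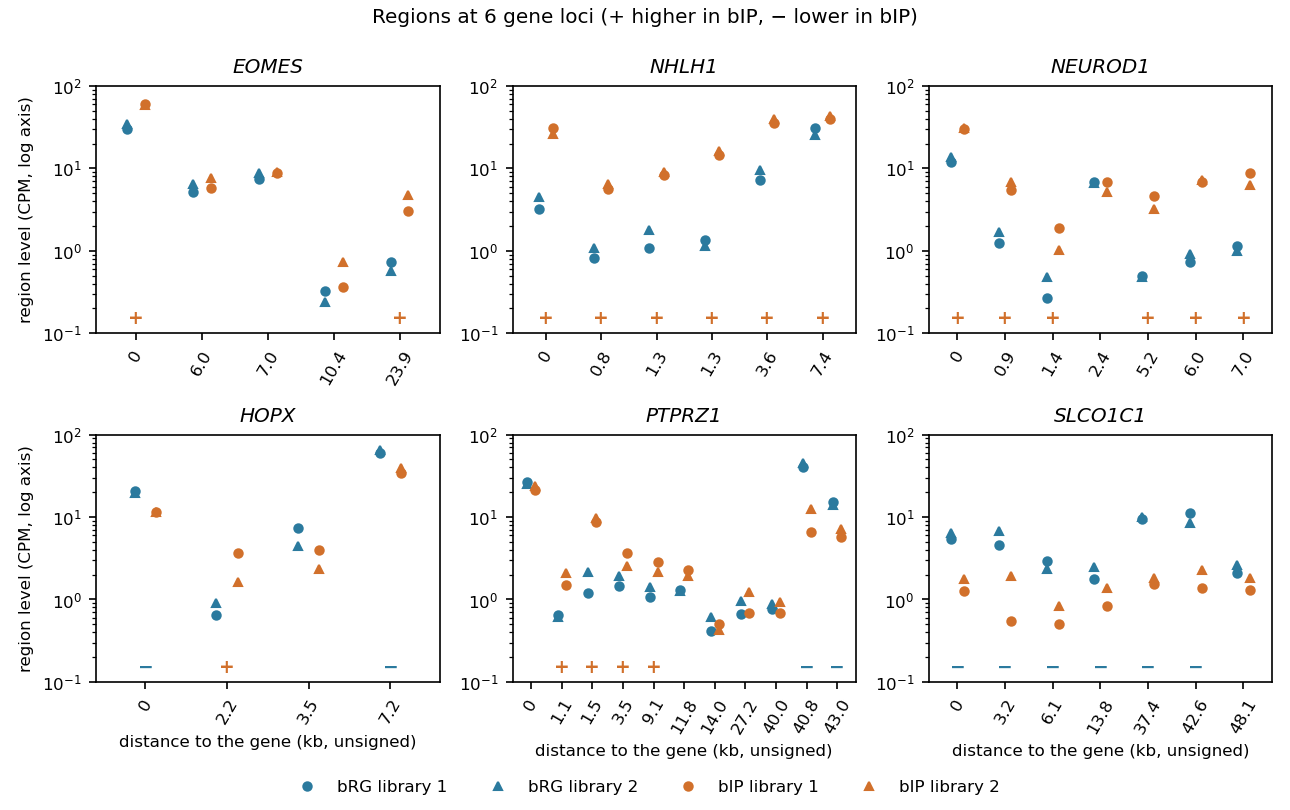
Levels of every tested region at 6 gene loci in the 2 bRG and 2 bIP libraries, in CPM on a log axis, ordered by the unsigned distance to the gene in kb. A plus marks a region that rose and a minus one that fell: all 6 regions at NHLH1 rose, 6 of 7 at NEUROD1 rose, 6 of 7 at SLCO1C1 fell, and PTPRZ1 held both kinds.

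Of 14070 gene loci tested, 3967 were called (28.2%), 2086 of them higher (14.8%) and 1881 lower in bIP (13.4%). The median log2 fold change over all loci was 0.00. Called in the full fit and in all 4 fits without 1 bIP or bRG library were 1920 loci (13.6%). Called loci numbered 2341 without bIP library 1, 2413 without bRG library 1 and 2507 without bRG library 2. Narrower windows moved single loci. Of the 99 loci chosen for naming, 96 were called. Within 10 kb, 10 of the 99 had no value, 11 called loci lost the call (BMP5, CACNA2D2, CUX1, DDX59, DLX1, EPB41L3, P2RY12, POSTN, SLC5A4, SSMEM1 and TLE4) and 2 were called in the opposite direction (CSF1R and PTPRZ1). Within 1 kb, 27 had no value and 17 lost the call, among them BCL11B, CSF1R, ERG, PAX6, PTPRZ1, RPS14 and TEAD1. The counts of members below are to be read against the shares over all loci just given. The loci of 547 of 589 genes on 30 lists could be formed; that of the Notch ligand DLL1 could not.

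Genes of the basal intermediate progenitor list mostly gained accessibility. Of 22 loci, 14 rose and 1 fell, with a median log2 fold change of 0.44, and 10 of the 14 were called in all 5 fits. NHLH1, a basic helix-loop-helix factor of newly formed neuronal precursors, held 107 and 108 CPM in bRG and 362 and 365 CPM in bIP (log2 fold change 1.75, SE 0.14, edgeR adjusted p = 0.000174). All 6 regions at the NHLH1 locus rose, the start among them: chr1:135374461-135375638 went from 3.23 and 4.51 CPM to 30.8 and 26.4 CPM. NEUROD1, a proneural factor downstream of the neurogenins, rose from 54.2 and 61.4 CPM to 176 and 157 CPM (log2 fold change 1.53, SE 0.15, edgeR adjusted p = 0.000322). INSM1, a zinc-finger factor that promotes the formation of basal progenitors, rose from 183 and 203 CPM to 344 and 337 CPM (log2 fold change 0.82, SE 0.10, edgeR adjusted p = 0.00086). SSTR2, a somatostatin receptor gene, rose from a low level of 0.915 and 1.76 CPM to 6.18 and 6.04 CPM (log2 fold change 2.07, SE 0.40, edgeR adjusted p = 0.00584).

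Exceptions on that list included NEUROG2, the proneural factor that starts neuronal commitment. Its 1 measured region lay 5.5 kb from the gene at chr4:110107467-110107945, and the locus value of 12.9 and 23.1 CPM in bRG against 6.57 and 9.20 CPM in bIP did not pass the test (log2 fold change -1.17, SE 0.40, edgeR adjusted p = 0.0618). That locus was called with DESeq2 (adjusted p = 0.0198), with the bIP and bRG libraries alone (edgeR adjusted p = 0.041), and without bRG library 1 (0.0453), aRG library 1 (0.0483) or aRG library 2 (0.0494). The NEUROG2 start itself was not among the regions assigned to the gene. TFAP2C, a transcription factor, was the 1 member that fell, named after its values were seen, and its call was lost without bIP library 1, bRG library 1 or bRG library 2. Rises at MFNG, HES6, PPP1R17 and NEUROG1 were likewise each lost without at least 1 library: MFNG without bIP library 1 or bRG library 2, PPP1R17 without bIP library 2 or either bRG library, and HES6 and NEUROG1 without any of the 4.

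In the basal radial glia list none of 19 loci rose and 12 fell, with a median of -0.51, and 7 of the 12 were called in all 5 fits. Summed over the list, the level was 2220.7 and 2295.5 CPM in bRG and 1546.1 and 1657.3 CPM in bIP. In aRG it was 2304.7 and 2172.4 CPM, about as high as in bRG, so the falls were not particular to basal radial glia. SLCO1C1, a thyroid hormone and organic anion transporter, showed the largest fall of this list. It held 93.3 and 84.2 CPM in aRG, 90.4 and 97.0 CPM in bRG, 20.3 and 31.7 CPM in bIP and 12.3 and 14.0 CPM in N. The log2 fold change of bIP against bRG was -1.84 (SE 0.18, edgeR adjusted p = 0.000314). Of its 7 tested regions 6 fell, from the start out to 42.6 kb, where chr12:20977969-20978883 went from 11.1 and 8.52 CPM to 1.38 and 2.26 CPM. ITGB5, an integrin subunit that binds vitronectin, fell from 161 and 172 CPM to 43.2 and 58.5 CPM (log2 fold change -1.71, SE 0.14, edgeR adjusted p = 0.000192). Its strongest region, 3.6 kb from the gene at chr3:123038027-123039125, went from 46.0 and 48.9 CPM to 6.74 and 11.5 CPM. TNC, an extracellular matrix glycoprotein around radial glia, fell from 82.9 and 87.6 CPM to 45.3 and 46.9 CPM (log2 fold change -0.88, SE 0.09, edgeR adjusted p = 0.000315). LIFR, a cytokine receptor chain, had a weak locus of 2.74 and 3.61 CPM in bRG and 3.43 and 2.57 CPM in bIP, and no difference was detectable (log2 fold change -0.07, SE 0.40, edgeR adjusted p = 0.922). Its sign turned without bIP library 2 (0.11) or bRG library 2 (0.12).

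Factors held in common by all radial glia fell in part. Of 23 shared radial glia loci, none rose and 12 fell (median -0.39), 8 of them in all 5 fits. HES1, the Notch target that keeps progenitors undifferentiated, fell from 182 and 172 CPM in bRG to 69.4 and 97.7 CPM in bIP (log2 fold change -1.08, SE 0.14, edgeR adjusted p = 0.00104). FABP7, a brain fatty acid binding protein, fell from 180 and 188 CPM to 64.1 and 102 CPM (log2 fold change -1.14, SE 0.17, edgeR adjusted p = 0.00194). In both, bIP library 1 lay further from bRG than bIP library 2. SOX2, a stem cell factor, fell from 256 and 247 CPM to 130 and 148 CPM (log2 fold change -0.86, SE 0.11, edgeR adjusted p = 0.00086), with the sharpest change in a region 3.2 kb away, chr3:179795561-179796420, from 32.1 and 27.9 CPM to 7.47 and 10.3 CPM. PAX6, a cortical radial glia factor, fell from 133 and 126 CPM to 82.8 and 90.6 CPM (log2 fold change -0.58, SE 0.10, edgeR adjusted p = 0.00423), and only 1 of its 8 regions was called, 5.8 kb from the gene at chr11:31521418-31523087. Within 1 kb the PAX6 value was -0.29 and not called (edgeR adjusted p = 0.171).

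Many neuronal genes rose. Of 26 pan-neuronal loci 14 rose and 2 fell (median 0.54), and 11 of the rises were called in all 5 fits. NEUROD2, a factor of glutamatergic neurons, rose from 55.8 and 52.9 CPM in bRG to 327 and 275 CPM in bIP (log2 fold change 2.46, SE 0.11, edgeR adjusted p = 5.28e-05), with 8 of its 9 regions called higher. MYT1L, a repressor of non-neuronal genes, rose from 26.2 and 31.1 CPM to 150 and 140 CPM (log2 fold change 2.33, SE 0.12, edgeR adjusted p = 6.14e-05). ANK3, the ankyrin of the axon initial segment, rose from 63.2 and 70.7 CPM to 223 and 232 CPM (log2 fold change 1.76, SE 0.08, edgeR adjusted p = 5.28e-05). The 2 that fell, named after their values were seen, were GAP43 and DPYSL3. GAP43 lost its call without bIP library 1 or either bRG library, and DPYSL3 without any 1 of the 4 libraries.

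Synapse and ion channel genes also gained, with 15 of 28 higher and 1 lower (median 0.50) and 12 rises called in all 5 fits. No fall on this list was called in any fit without 1 bIP or bRG library. GRIK2, a kainate receptor subunit, rose from 1.76 and 1.26 CPM to 4.80 and 6.53 CPM (log2 fold change 1.78, SE 0.30, edgeR adjusted p = 0.00292), although N held only 1.52 and 1.79 CPM. Neuronal splicing and RNA-binding genes gave 6 rises and no fall among 23 (median 0.21), a called share of 26.1% under that over all loci. SRRM4, which drives the inclusion of neuronal microexons, led them, from 37.1 and 35.8 CPM to 186 and 153 CPM (log2 fold change 2.21, SE 0.13, edgeR adjusted p = 7.48e-05). RBFOX3 (NeuN), a splicing factor of mature neurons, went from 129 and 127 CPM to 307 and 282 CPM (log2 fold change 1.20), and CELF3 from 72.8 and 79.9 CPM to 180 and 150 CPM (log2 fold change 1.11).

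Layer genes did not share a direction. Among 15 deep-layer loci 4 rose and 5 fell (median -0.09). TBR1, a T-box factor of corticothalamic neurons, rose from 68.2 and 68.0 CPM to 204 and 177 CPM (log2 fold change 1.48, SE 0.10, edgeR adjusted p = 0.000107). BCL11B, the sorting marker of the neurons, held 153 and 136 CPM in bRG, 192 and 179 CPM in bIP and 132 and 115 CPM in N. Its rise of 0.36 (SE 0.10, edgeR adjusted p = 0.0296) was lost without bIP library 1 (edgeR adjusted p = 0.148), bIP library 2 (edgeR adjusted p = 0.0514) or bRG library 2 (edgeR adjusted p = 0.180). The other rises were at NFE2L3 and BHLHE22 and the falls at LMO3, TLE4, FEZF2, LDB2 and NR4A2, of which those at LMO3, TLE4 and FEZF2 were called in all 5 fits, and without bIP library 1 the TBR1 rise alone remained, beside 3 falls. Without bRG library 2 TBR1 was again the only rise. Of 15 upper-layer loci 3 rose (POU3F1, CUX1 and UNC5D) and 2 fell (LMO4 and POU3F3), with a median of 0.06. LMO4, an LIM-only cofactor, fell from 556 and 486 CPM to 306 and 320 CPM (log2 fold change -0.73, SE 0.12, edgeR adjusted p = 0.00225). CUX1 turned to -0.19 within 10 kb (edgeR adjusted p = 0.414), and the LMO4, TLE4 and POU3F1 calls were lost within 1 kb. In this group UNC5D lost its call without bIP library 2 or bRG library 1, and POU3F3 without bIP library 1 or either bRG library. Without bIP library 2, 4 upper-layer loci fell.

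In the Notch pathway, through which neighbouring cells keep each other in the progenitor state, 14 of 22 loci were not called and the calls went both ways. DLL3, a ligand-like protein that acts within the signal-sending cell, rose from 20.1 and 26.3 CPM in bRG to 95.2 and 115 CPM in bIP (log2 fold change 2.17, SE 0.15, edgeR adjusted p = 0.000107), mainly at its start, chr19:37645620-37647442, which went from 7.48 and 9.13 CPM to 33.5 and 40.1 CPM. NOTCH3, a receptor, fell from 112 and 114 CPM to 52.9 and 71.0 CPM (log2 fold change -0.87, SE 0.12, edgeR adjusted p = 0.00141). Over the 22 loci, 3 rose (DLL3, DLL4 and the glycosyltransferase MFNG) and 5 fell (HES1, NOTCH3, NRARP, HES4 and JAG1), with a median of -0.09. The rises at DLL4 and MFNG and the fall at JAG1 were lost without bIP library 1 or bRG library 2, which left DLL3 as the only rise in those fits, and without bRG library 1 there were 4 rises.

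Called loci of growth factor pathways were mostly lower in bIP. In the BMP and TGF-beta pathway none of 27 loci rose and 13 fell (median -0.26), and 9 of the 13 were called in all 5 fits. The receptor genes BMPR2 and TGFBR2 showed the largest falls, from 47.1 and 46.3 CPM to 13 and 19.6 CPM (log2 fold change -1.51, SE 0.20, edgeR adjusted p = 0.00103) and from 109 and 89.0 CPM to 38.9 and 48.3 CPM (log2 fold change -1.18, SE 0.16, edgeR adjusted p = 0.00103). BMP5, a ligand, fell from 28.3 and 26.5 CPM to 11 and 13 CPM (log2 fold change -1.18). Of 19 FGF pathway loci 8 fell and 1 rose (median -0.18). FGFR2, a receptor, fell from 341 and 342 CPM to 168 and 219 CPM (log2 fold change -0.82, SE 0.12, edgeR adjusted p = 0.00134), and ETV4, a transcriptional target of FGF signalling, from 237 and 201 CPM to 116 and 127 CPM (log2 fold change -0.85, SE 0.11, edgeR adjusted p = 0.000828). The number of FGF falls went to 4 without bIP library 1 and to 5 without either bRG library, and the 1 rise, at the ligand FGF9 (named after its values were seen), was lost without bIP library 1 or bRG library 1. Without bIP library 2 there were 2 FGF rises.

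Wnt pathway loci gave 11 falls and 3 rises among 29, with a median of -0.28. SFRP2, a secreted Wnt-binding protein, fell from 135 and 148 CPM to 73.4 and 79.5 CPM (log2 fold change -0.89, SE 0.08, edgeR adjusted p = 0.000226). The ligand genes WNT5A and WNT7B went the other way. WNT5A rose from 9.57 and 6.80 CPM to 72.4 and 36 CPM (log2 fold change 2.69, SE 0.33, edgeR adjusted p = 0.000738), more in bIP library 1 than in library 2, and WNT7B from 133 and 102 CPM to 250 and 229 CPM (log2 fold change 1.02, SE 0.18, edgeR adjusted p = 0.00393). Without bIP library 1 the WNT5A value was 2.10, and the WNT5A locus held 108 and 91.4 CPM in N. The third rise, at RSPO3, named after its values were seen, was lost without bIP library 1 or bRG library 2. Falls numbered 7 without bIP library 1 or bRG library 2 and 5 without bRG library 1.

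Hippo pathway loci gave 5 falls and no rise among 16 (median -0.31). Of these, CCN1, a target of the coactivator YAP, fell from 93.6 and 94.7 CPM to 50.4 and 57.2 CPM (log2 fold change -0.81, SE 0.12, edgeR adjusted p = 0.00186), and TEAD1, the DNA-binding partner of YAP, by 0.46 on the log2 scale. The other 3, AXL, STK3 and TEAD4, named after their values were seen, each lost the call without bIP library 1, and in each of the fits without bIP library 1, bRG library 1 or bRG library 2 there were 3 falls, not all of them at these 5 loci. Without bIP library 2 there was 1 rise. Among 14 Hedgehog pathway loci 6 fell and 3 rose (median -0.27). GLI3, the main repressor of the pathway in cortex, fell from 507 and 564 CPM to 295 and 354 CPM (log2 fold change -0.72, SE 0.10, edgeR adjusted p = 0.00153). The 3 rises, among them DISP1 and SHH, named after their values were seen, did not last: 1 was called without bIP library 1 or bRG library 1, and none without bRG library 2.

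Genes that shape contacts and cell form were divided. Of 21 extracellular matrix and integrin loci 12 fell and 2 rose (median -0.44), 8 of the falls in all 5 fits. LAMA1, a laminin chain, fell from 56.1 and 65.7 CPM to 30.8 and 34.1 CPM (log2 fold change -0.90, SE 0.12, edgeR adjusted p = 0.00103), while LAMB1, another laminin chain, rose from 34.3 and 35.1 CPM to 75.4 and 54.1 CPM (log2 fold change 0.90, SE 0.16, edgeR adjusted p = 0.00385). NID2, the other that rose (named after its values were seen), lost its call without bRG library 2. Among 23 loci of membrane and cortical actin proteins 3 rose and 7 fell (median -0.05). ADD3, an adducin that caps actin, fell from 105 and 91.2 CPM to 53.5 and 41.9 CPM (log2 fold change -1.04, SE 0.13, edgeR adjusted p = 0.000925), although N held 101 and 87.7 CPM at ADD3. EPB41L3, which links spectrin and actin to the membrane, rose from 69.4 and 76.1 CPM to 162 and 159 CPM (log2 fold change 1.14, SE 0.12, edgeR adjusted p = 0.00044), a call that was lost within 10 kb (0.33, edgeR adjusted p = 0.106). Falls in this list numbered 4 without bIP library 1 and 3 without bRG library 1. The further rises were at PALM, lost without bRG library 2, and CDC42EP3.

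Apical polarity and junction genes showed 4 rises and 5 falls among 18 (median 0.06). NUMBL, a Numb-like adaptor that acts on Notch, rose from 166 and 167 CPM to 295 and 297 CPM (log2 fold change 0.83, SE 0.07, edgeR adjusted p = 0.000174). DLG1, a scaffold of the basolateral membrane, fell from 147 and 131 CPM to 81.8 and 84.1 CPM (log2 fold change -0.74, SE 0.10, edgeR adjusted p = 0.00104). The remaining calls were rises at ARHGEF2, AFDN and LIN7A and falls at TJP1, CRB1, CTNNB1 and PARD6B, named with their values known. Only NUMBL and ARHGEF2 rose without bIP library 1 or either bRG library, and the falls numbered 3 without bIP library 1 and 2 without bIP library 2 or bRG library 1. Genes tied to delamination, the departure from the ventricular surface, gave 6 rises (INSM1, SCRT2, FOXP4, SCRT1, RND3 and TRNP1) and 2 falls (LMO4 and SNAI2) among 16, with a median of 0.31. SCRT2, a Scratch-family repressor, rose from 205 and 207 CPM to 342 and 360 CPM (log2 fold change 0.77, SE 0.13, edgeR adjusted p = 0.00281). RND3 and TRNP1 lost their calls without bIP library 1 or bRG library 2 and RND3 also without bRG library 1, and SNAI2 without bIP library 2 or either bRG library.

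Axon guidance and migration genes were mixed, with 10 rises and 6 falls among 26 (median -0.04). CNTN2, an axonal adhesion molecule, rose from 175 and 184 CPM to 404 and 417 CPM (log2 fold change 1.19, SE 0.11, edgeR adjusted p = 0.000248), and UNC5A, a netrin receptor, from 265 and 257 CPM to 555 and 461 CPM (log2 fold change 0.96, SE 0.12, edgeR adjusted p = 0.000889). The 10 rises became 6 without bIP library 1 or bRG library 1 and 5 without bRG library 2, and the 6 falls became 4 without bIP library 2. Of 28 cell cycle loci 2 rose and 5 fell (median -0.13), a called share of 25.0% under that over all loci. CCND1, the G1 cyclin, fell from 239 and 215 CPM to 148 and 145 CPM (log2 fold change -0.63, SE 0.09, edgeR adjusted p = 0.00153) and was the only cell cycle locus called in all 5 fits. The other calls, rises at CCNE1 and MCM5 and falls at RRM2, CCNB2, CENPE and MCM6, named with their values known, were each lost without at least 1 library: without bIP library 1 there were no rises and 2 falls, without bRG library 1 no rises and 3 falls, without bIP library 2 a count of 1 and 3, and without bRG library 2 there was 1 of each.

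Loci of genes that mark other cell types were called at differing shares, beside 28.2% of all loci. The share was 17.6% for the mesenchyme and neural crest list, 21.4% for midbrain and hindbrain and 33.3% to 58.8% for the others. These markers are given here for the whole of each list, since their part in the results above was not tested. Of 9 Cajal-Retzius loci 5 rose and none fell (median 0.81), and the summed level went from 586 and 561 CPM in bRG to 1535 and 1256 CPM in bIP. EBF2, a transcription factor of these early neurons, rose from 116 and 133 CPM to 393 and 396 CPM (log2 fold change 1.66, SE 0.08, edgeR adjusted p = 5.28e-05), with 14 of its 17 regions higher. The other rises were at NHLH2, CALB2, CACNA2D2 and EBF3, the last lost without bIP library 1 or bRG library 2. CACNA2D2 stands on the synapse list as well.

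Of 12 endothelial loci 4 rose (FLT1, TEK, ERG and CDH5) and 1 fell (KDR), with a median of 0.61. These rises depended on the window. Summed within 10 kb of the gene, 2 of 10 loci rose and 2 fell, and within 1 kb none of 8 rose and 2 fell. FLT1, a VEGF receptor, held 6.97 and 8.14 CPM in bRG, 80.0 and 61.6 CPM in bIP and 79.2 and 46.5 CPM in N (log2 fold change 3.20, SE 0.28, edgeR adjusted p = 0.00021). All 5 of its regions rose. TEK, the angiopoietin receptor, rose from 6.05 and 4.95 CPM to 40.1 and 27.2 CPM (log2 fold change 2.57), and ERG, an ETS factor, from 25.2 and 21.0 CPM to 80.7 and 74.0 CPM (log2 fold change 1.73), though N held only 22.4 and 16.1 CPM at ERG. KDR, the main VEGF receptor of endothelium, went in the opposite direction (log2 fold change -1.38). The summed endothelial level was 266 and 233 CPM in bRG and 470 and 382 CPM in bIP. Without bIP library 2 there were 6 rises.

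Choroid plexus and hem loci gave 9 falls and 1 rise among 17 (median -0.30), and their sum went from 1246 and 1207 CPM in bRG to 1015 and 965 CPM in bIP. TTR, the transthyretin gene of choroid plexus, fell from 61.0 and 57.2 CPM to 27.8 and 25.2 CPM (log2 fold change -1.15, SE 0.16, edgeR adjusted p = 0.00118). Without bIP library 1, bIP library 2 or bRG library 1 there were 6 falls, and the rise, at AQP1 (named after its values were seen), was absent without bIP library 1 or either bRG library. Of 19 astrocyte and oligodendrocyte loci 7 fell and 1, MOG, rose (median -0.47), with a sum of 1241 and 1141 CPM in bRG and 952 and 864 CPM in bIP. SPARCL1, a matricellular protein also made by radial glia, fell from 114 and 112 CPM to 34.5 and 38.5 CPM (log2 fold change -1.63, SE 0.11, edgeR adjusted p = 8.19e-05), and SLC1A2, a glial glutamate transporter, from 125 and 161 CPM to 41.8 and 65.0 CPM (log2 fold change -1.42).

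Among 20 loci of inhibitory neurons and the ganglionic eminences 4 rose and 5 fell (median -0.24), and their sum was 1785 and 1751 CPM in bRG and 1661 and 1610 CPM in bIP. DLX1, a factor of interneuron progenitors, fell from 137 and 128 CPM to 57.6 and 73.5 CPM (log2 fold change -1.02, SE 0.14, edgeR adjusted p = 0.00137), and EBF1, a striatal factor related to EBF2, rose from 54.0 and 56.0 CPM to 203 and 191 CPM (log2 fold change 1.84, SE 0.11, edgeR adjusted p = 7.64e-05). Further calls were rises at SLC32A1, SIX3 and GAD1 and falls at GSX1, MAF, GAD2 and ISL1. Without bIP library 1 or either bRG library only EBF1 and GAD1 rose. The EBF1 and DLX1 calls rest on regions more than 1 kb from those genes, within which the log2 fold changes were 0.073 and -0.22.

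Pluripotency loci gave 3 falls and no rise among 9 (median -0.09), with a sum of 402 and 426 CPM in bRG and 284 and 289 CPM in bIP. ZFP42 (REX1), a stem cell zinc-finger gene, fell from 123 and 158 CPM to 18.3 and 44.2 CPM (log2 fold change -2.16, SE 0.31, edgeR adjusted p = 0.00153), and its value without bIP library 2 was -2.92. The other falls were at NANOG, lost without bIP library 2 or bRG library 1, and LIN28B, and neither was called in all 5 fits. Microglia and blood loci showed 2 rises (C1QA and CSF1R) and 2 falls (P2RY12 and RUNX1) among 7 (median 0.09), with a sum of 235 and 193 CPM in bRG and 179 and 165 CPM in bIP. Within 10 kb the values turned for CSF1R (-1.04 in place of 1.06) and P2RY12 (0.073 in place of -1.40). RUNX1 lost its call without either bIP library or bRG library 1. Mesenchyme and neural crest loci gave 1 rise (POSTN) and 2 falls (COL1A1 and FOXC1) among 17 (median -0.38), with a sum of 792 and 687 CPM in bRG and 663 and 617 CPM in bIP, and neither fall was called without any of bIP library 1, bIP library 2 or bRG library 1. Midbrain and hindbrain loci gave 1 rise (LMX1B) and 2 falls (GATA3 and GBX2) among 14 (median 0.08), with a sum of 538 and 474 CPM in bRG and 536 and 471 CPM in bIP, and none of the 3 calls was made in all 5 fits: LMX1B was lost without either bIP library or bRG library 1, GATA3 without bRG library 1 and GBX2 without bRG library 2. Of 26 ribosomal protein loci, a set of housekeeping genes, 3 rose and 1 fell (median 0.09), a called share of 15.4% under that over all loci. The fall, at RPL3, came from 2 regions that both lay more than 1 kb from the gene. RPL3 fell from 46.4 and 44.5 CPM to 12.2 and 16.3 CPM (log2 fold change -1.66), and of the rises at RPS14, RPL19 and RPL30 only that at RPS14 was called in all 5 fits (-0.023 within 1 kb, not called), with 1 rise without bIP library 1 or bRG library 2.

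**Figure D4:**
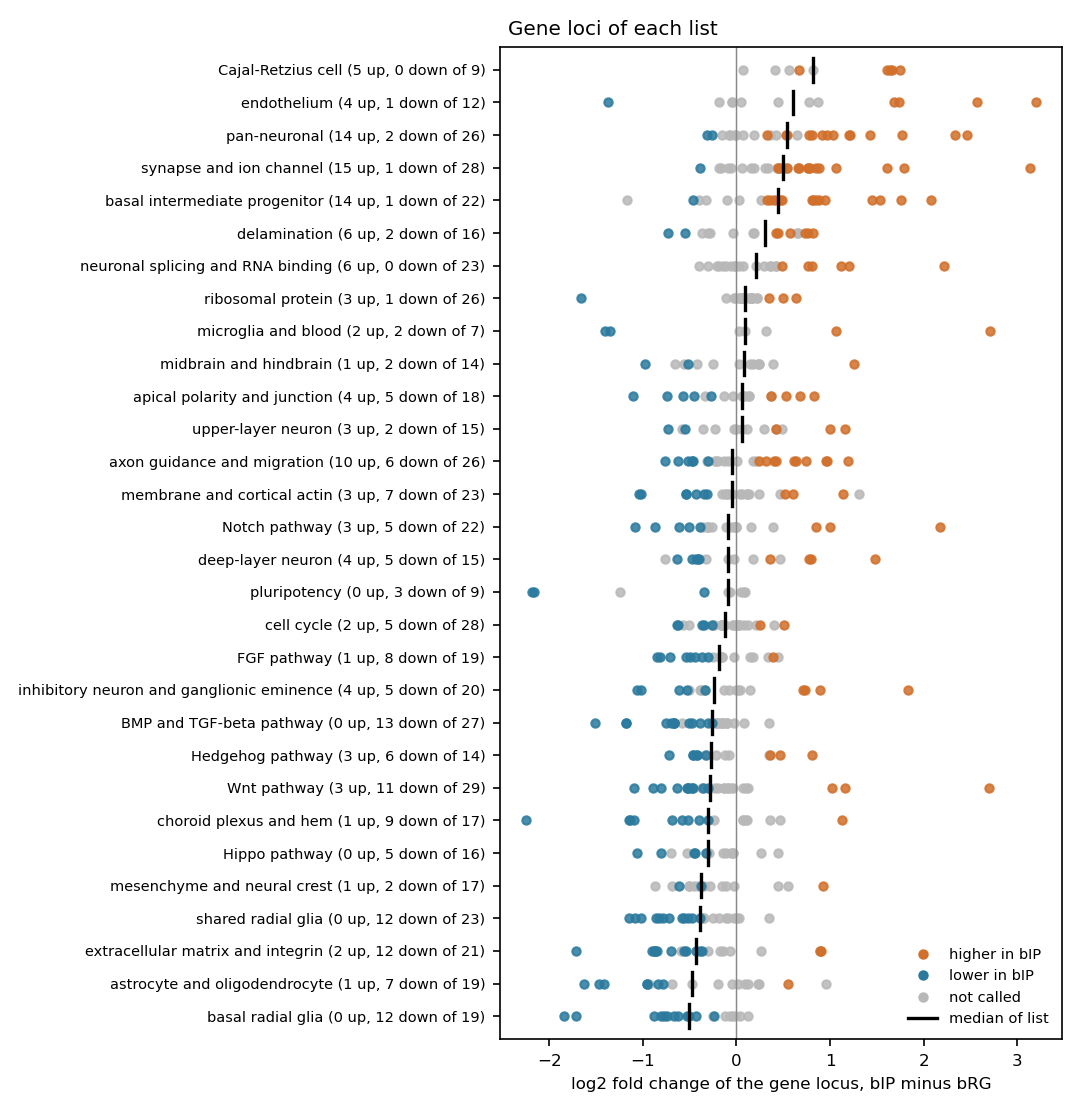
Each point is a gene locus, placed by its log2 fold change of bIP against bRG, in 30 gene lists ordered by their median (black bar), with orange for loci that rose and blue for loci that fell. The basal radial glia list lies at the lower end with a median of -0.51, and the pan-neuronal (0.54), synapse (0.50) and basal intermediate progenitor (0.44) lists lie near the upper end.

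Neuron libraries placed beside these values separate loci that were higher in bIP than in N from loci that were not. All populations were collected in the same week of culture, so these levels give no course in time. Calls of N against bIP were not repeated with a library left out. The comparison of N with bIP shares the bIP libraries with the comparison above, so the 2 are set side by side and not combined. Of all loci, 29.2% were called between N and bIP, with 17.0% lower and 12.1% higher in N than in bIP. NHLH1 held 208 and 152 CPM in N, under both bIP libraries (log2 fold change of N against bIP -1.01, SE 0.14, edgeR adjusted p = 0.00151). EOMES (-1.03, SE 0.16, edgeR adjusted p = 0.00264), DLL3 (-1.21, SE 0.14, edgeR adjusted p = 0.00102) and INSM1 (-0.66, SE 0.10, edgeR adjusted p = 0.00279) were likewise lower in N than in bIP. NEUROD2, by contrast, held 383 and 379 CPM in N and was higher there than in bIP (0.34, SE 0.10, edgeR adjusted p = 0.0394). NEUROD1, with 175 and 125 CPM in N, MYT1L, with 148 and 149 CPM, and SRRM4, with 190 and 158 CPM, did not differ detectably between N and bIP (edgeR adjusted p = 0.483, 0.848 and 0.853). TBR1, named for neurons of the deep layers, was lower in N (132 and 122 CPM) than in bIP (-0.58, SE 0.10, edgeR adjusted p = 0.00374).

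Over all gene loci with at least 2 regions and 10 CPM in bIP or bRG, the largest rises that held in all 5 fits were at TPCN1, NPPA, KRTAP12-3, XDH, MMP3, SLC5A4, TRHR and GPX2. TPCN1, a lysosomal cation channel gene, went from 4.15 and 2.85 CPM in bRG to 77.6 and 39.6 CPM in bIP (log2 fold change 3.99, SE 0.53, edgeR adjusted p = 0.00104). Nearly all of it came from 1 region 10.8 kb from the gene, chr12:110905909-110907345, with 1.38 and 0.916 CPM in bRG and 27.4 and 14.6 CPM in bIP. NPPA, a natriuretic peptide gene, was more even between libraries, at 5.63 and 7.14 CPM against 83.8 and 76.4 CPM (log2 fold change 3.62, SE 0.19, edgeR adjusted p = 5.28e-05). KRTAP12-3 moved to 2.85 without bIP library 1 and to 4.31 without bRG library 1 from 3.49, and MMP3 to 2.74 without bIP library 1 from 3.39. The largest falls by the same rule were at NMS, DDX59, CCDC40, SSMEM1, IRX1, NPVF, TRPM8 and ZFP42. NMS, a neuropeptide gene, went from 23.8 and 17.5 CPM to 3.04 and 3.96 CPM (log2 fold change -2.50, SE 0.26, edgeR adjusted p = 0.000394), and N held under 1 CPM there, 0.719 and 0.497 CPM. IRX1, a homeobox gene, went from 23.4 and 17.4 CPM to 3.82 and 4.35 CPM (log2 fold change -2.27), from 1 region.

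Among single regions the strongest rise was at chr17:34319067-34319717, 1.8 kb from a Y RNA gene, with 0.352 and 0.238 CPM in bRG and 14.1 and 9.07 CPM in bIP (log2 fold change 4.98, SE 0.43, edgeR adjusted p = 1e-05). N held 1.64 and 0.744 CPM in this region, so it was open in bIP and nearly closed in the other 3 populations. Similar levels were found at chr20:60309165-60309820, with 0.293 and 0.170 CPM in bRG, 7.72 and 6.32 CPM in bIP and 1.67 and 0.549 CPM in N (log2 fold change 4.54). At chr19:47955850-47956748 the level went from 0.704 and 0.713 CPM to 20.6 and 18.2 CPM and stayed high in N, at 13.6 and 7.72 CPM (log2 fold change 4.64). The strongest fall was at chr16:53758594-53759666, from 16.4 and 13 CPM in bRG to 0.942 and 1.68 CPM in bIP (log2 fold change -3.42, SE 0.31, edgeR adjusted p = 1.31e-05).

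Some regions that rose or fell lay in long uninterrupted runs along the genome. The longest held 24 consecutive tested regions that all rose, chr19:31536782-31669976, a stretch of 133 kb whose closest genes were KCTD15, an adaptor protein gene, and CHST8, a sulfotransferase gene. Its summed level was 25.8 and 31.2 CPM in bRG and 141 and 122 CPM in bIP, with 128 and 105 CPM in N, and 16 of the 24 regions were called in all 5 fits. A second run of 16 rising regions lay close by, chr19:31331916-31418501, nearest to PEPD and CEBPG. The longest run of falls held 15 regions, chr19:40582633-41257803, spread over 675 kb near CEACAM8. SLCO1C1 lay within a run of 10 falling regions, chr12:20904080-21118730. Most runs were short: 818 of 28049 runs of rising regions and 438 of 27902 runs of falling regions held 5 or more. A run here can be a single region, and whether long runs exceed what the called shares would give was not tested.

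Peak lists, which the authors called once per population from the same libraries, overlapped for the most part. Of 84922 bIP peak intervals 68.9% (95% Wilson interval 68.6 to 69.2%) shared at least 1 bp with a bRG interval, and of 89358 bRG intervals 65.3% (65.0 to 65.6%) with a bIP interval. These intervals cover counting error only. Peaks found in 1 list alone were weaker by the authors' own -log10 q-value, with a median of 90.8 against 182 for shared peaks in bIP and 80.7 against 244 in bRG. In the 54629 tested regions in both lists, 13.9% rose and 22.4% fell.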

How the data were processed

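Bulk ATAC-seq was done on 8 libraries. The authors deposited whole-number read counts per region, unscaled, and, per the file headers, the closest gene with its distance in bp. Names in the submitters' processing notes are bcl2fastq 2.20.0, MACS2, panTro6 and hg38. The aligner and the way in which libraries were combined into peaks are not stated in the sources at hand. The deposited bIP and bRG peak lists gave intervals and a -log10 q-value per peak. Per the labels' protocols, transposition took 2 hours and fragments of 150 to 1000 bp were kept.

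Regions without a chimpanzee identifier (6725, with no counts) and 7 repeats were dropped. Distances, treated as distances to a gene start, have no sign and no stated build. Protein-coding symbols came from a name table of assembly NHGRI_mPanTro3-v2.0 and matched 14206 of 41376 closest genes, which gave 14187 loci from 47692 regions. Regions closest to another kind of gene entered no locus. edgeR 4.0.16 (quasi-likelihood, robust, TMM, filterByExpr) was fitted to the 8 libraries by population, with no other covariate, leaving 4 residual degrees of freedom. The filter removed 13121 regions and 117 loci. Scripts were tested on simulated data. Log2 fold changes carry a prior count of 2. An exact permutation test of 2 against 2 libraries cannot go below p = 0.333, so the model fitted over all features was used.

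Named loci were 15 markers, of which 14 had a locus, up to 3 members per list with the largest change called in 5 fits, the 8 largest rises and falls over all loci and the 6 over all regions, and the longest runs. Members and lists were chosen with earlier results of these data known. The comparison of N with bIP was added after values were seen. Alternatives were DESeq2 1.42.0, RLE and loess scaling, no filter, 4 libraries only, a replicate block, leaving out each library, and narrower windows. A planned count of promoter motifs was not made, and no sequence is printed. A few list members are not reported here by name.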

Additional observations from a re-analysis of the deposited data

How the results depend on the processing

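Leaving out 1 library at a time moved the counts of regions, loci and gene start regions. Regions called ranged from 56235 (without bIP library 1) to 88923, those that rose from 31228 to 46548 and those that fell from 25007 to 42397. Gene loci called ranged from 2341 (without bIP library 1) to 4318, with 1293 to 2268 higher and 1048 to 2053 lower, and gene start regions from 976 (without bRG library 1) to 2689. Such fits hold fewer libraries. The cause of the differences among them was not tested. DESeq2 called 71853 regions, 3841 loci and 1199 gene start regions. Summing only regions within 1 kb of the gene, which leaves fewer regions, gave 1656 loci called, 800 higher and 856 lower, further from the full count of 3967 than any fit without 1 library. Of the bIP peak intervals, 67.2% were covered by bRG intervals when the overlap had to span 50% or more of the interval. No called region or locus was called in the opposite direction by DESeq2, either other scaling, no filter, the 4 libraries alone, the replicate block or any fit without 1 library, but 29 loci were within 10 kb and 23 within 1 kb.

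The labels do not say that equal replicate numbers mark shared material. Deviations of libraries with the same number correlated at 0.280 over regions and 0.378 over loci between bRG and bIP, and at 0.116 to 0.313 and 0.216 to 0.515 over all 6 pairs of populations, as a hint from the data and not the design. With the replicate block 98169 regions and 5600 loci were called, among them every call of the fit without it. NEUROG2 was then called (edgeR adjusted p = 0.0159). The lists whose calls grew by over 1.5 times with the block were mesenchyme and neural crest, with 1 rise and 8 falls in place of 1 and 2, Hippo (2 and 7 in place of 0 and 5), midbrain and hindbrain (2 and 3 in place of 1 and 2), upper-layer (5 and 3 in place of 3 and 2), endothelium (7 and 1 in place of 4 and 1) and cell cycle (4 and 7 in place of 2 and 5).

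Values that turned direction were FAM107A without bIP library 2 (0.054) or bRG library 1 (0.03), over a range of -0.094 to 0.054 with 1 library left out (it was called lower within 10 kb, -0.40, and within 1 kb, -0.99), LIFR without bIP library 2 (0.11) or bRG library 2 (0.12), over a range of -0.28 to 0.12, PTPRZ1 (0.46), CUX1 (-0.19), P2RY12 (0.073) and CSF1R (-1.04) within 10 kb, and CUX1 (-0.18), CSF1R (-1.03) and RPS14 (-0.023) within 1 kb. Depth limits weak loci such as LIFR, GRIK2 and SSTR2, which hold few counts in bRG. With 2 libraries per population a difference smaller than the spread between them goes unseen.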

Other observations

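Calls were unevenly spread over chromosomes. On chromosome 22, 28.1% of 3201 tested regions rose and 14.1% fell, and on chromosome 20 the shares were 27.7% and 17.8% of 5200. Chromosome 19 had the lowest called share of the autosomes, 32.3% of 4188 regions, with 22.0% higher and 10.3% lower. Chromosome 6 had 19.8% higher and 22.1% lower of 12297. The median level in bRG was 2.81 CPM on chromosome 19 and 1.30 CPM on chromosome 6, and its part in these shares was not tested.

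Regions without a counterpart in the table for other species changed about as often as the rest. Of 2096 tested regions with a chimpanzee identifier only, 22.2% rose and 23.0% fell, beside 22.4% and 20.6% of 186364 regions with identifiers in human and gorilla as well. Of 8732 regions with a human but no gorilla identifier, 24.5% rose and 15.1% fell.

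Further long runs of rising regions were nearest to pseudogenes and non-coding genes in some cases and to protein-coding genes in others. One of 17 regions, chr16:22595458-22742316, was nearest to the pseudogene CYCSP39 and held 32.2 and 30.3 CPM in bRG and 132 and 135 CPM in bIP. Another of 17, chr4:217033-336280, was nearest to non-coding genes that include LINC02171. KCNN3, a potassium channel gene, was nearest to a run of 15 rising regions within 44.0 kb, chr1:129624248-129668218, and PDE8A, a phosphodiesterase gene, to part of a run of 16, chr15:63500318-63849997.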
